A study of Drosophila melanogaster with 3 samples.

Results

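The oxidative phosphorylation genes encode the protein complexes of the mitochondrial inner membrane that oxidise NADH and succinate, reduce oxygen and make ATP. They were taken here as the protein-coding genes on the nuclear chromosome arms whose symbol begins with ND-, Sdh, UQCR-, COX or ATPsyn, which gave 88 of 13945 genes. By these prefixes 40 belong to complex I, 8 to complex II, 9 to complex III, 16 to complex IV and 15 to complex V. The rule itself uses no binding value, but the group was chosen for description with earlier results of these data known. Binding was measured by chromatin immunoprecipitation and sequencing (ChIP-seq) in whole Drosophila melanogaster embryos, male and female pooled, aged 0 to 16 h. The embryos were of 1 transgenic strain, HLHm7-GFP, in which HLHm7, the basic helix-loop-helix repressor encoded by E(spl)m7-HLH, is stably produced with GFP at its C-terminus, and chromatin was precipitated through the GFP. The 3 libraries are biological replicates of 1 group, so there is no comparison between groups. Neither the promoter that drives the fusion protein nor the number of embryos per replicate is stated in the labels. Because whole embryos were used, strong binding in few cells and weak binding in many cannot be told apart.

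In the respiratory chain, complex I (NADH dehydrogenase) and complex II (succinate dehydrogenase) pass electrons to ubiquinone, complex III passes them to cytochrome c, and complex IV (cytochrome c oxidase) passes them to oxygen. Complex V, the ATP synthase, uses the proton gradient that the chain builds. Most subunits are encoded in the nucleus and are made in nearly every cell, so these genes are housekeeping genes. In Drosophila several subunits also have a duplicate gene, marked by an L at the end of its symbol, and such duplicates are often expressed mainly in the testis. HLHm7 belongs to the Enhancer of split proteins, which act downstream of Notch and repress proneural genes.

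Peaks of HLHm7 lay at the promoters of a small part of the oxidative phosphorylation genes, at the same rate as at other genes. A gene was counted as bound when the summit of a peak in the authors' optimal set of 2397 reproducible peaks lay within 1 kb of one of its annotated transcription start sites (TSS). By this measure 11 of 88 genes were bound, 12.5% with a 95% Wilson interval of 7.13 to 21.0%, against 12.4% of all protein-coding genes (1728 of 13945). The share is that of the background and is no result about these genes as a set. Wilson intervals here cover counting error only, and genes are not replicates. The 11 bound genes were ND-ASHI, ND-MWFE, ND-51, ND-24 and ND-42 of complex I, COX5A, COX5B and COX6B of complex IV, and ATPsynE, ATPsynC and ATPsynCF6 of complex V. Complexes II and III had 0 bound genes of 8 and 9, counts that at these sizes leave upper limits of 32.4% and 29.9%. Filtering these peaks by replicate can only lower the count. With peaks among the strongest regions of both replicates 2 and 3, or of both replicates 1 and 3, 6 genes remained (6.82%). With those of replicates 1 and 2, 8 genes remained (9.09%). Over all genes the same steps gave 8.54%, 8.66% and 8.84%.

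**Figure D1:**
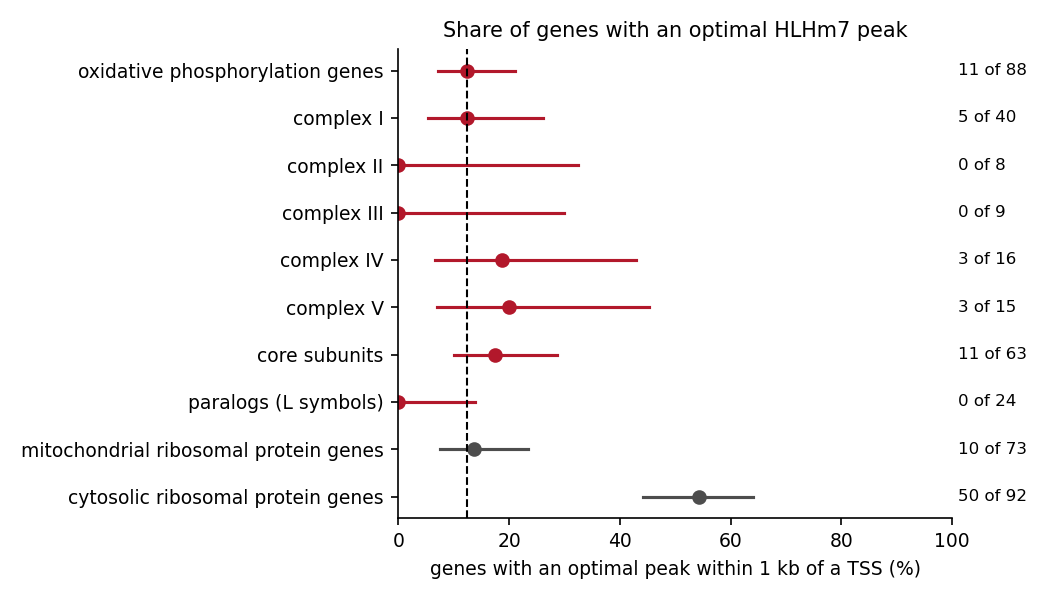
Share of genes with an optimal peak within 1 kb of a TSS (x axis, percent) for the oxidative phosphorylation genes, their complexes and subsets (red) and for 2 ribosomal protein gene groups (grey). Points are shares, bars 95% Wilson intervals, and the dashed line is the share of all protein-coding genes, 12.4%. The oxidative phosphorylation genes sit on the line, and the cytosolic ribosomal protein genes, at 54.3%, sit apart from it.

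The same picture held in each replicate. Each replicate's list holds 30000 ranked regions, of which the 2397 with the highest signal are called its top regions. Replicate 1 had a top region at 12 of the 88 genes (13.6%, against 12.6% of all genes), replicate 2 at 10 (11.4% against 11.8%) and replicate 3 at 9 (10.2% against 12.4%). The mean was 11.7% ± 1.74 (SD, n = 3) for the oxidative phosphorylation genes and 12.3% ± 0.384 (SD, n = 3) for all genes, a difference smaller than the spread between replicates. A top region in all 3 replicates was found at 6 of the 88 genes (6.82%), against 1084 of all genes (7.77%). This region need not be the same one in each replicate. When 1 optimal peak had to match a top region in all of them, 5 genes remained (5.68%, against 7.67% of all genes).

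Complex I contributed the 3 highest ranks. Signal is the value that the authors' peak caller gave to each region, has no stated scale and is used only to rank regions within a list, with rank 1 the highest. ND-ASHI, an accessory subunit of the membrane arm, had a peak of signal 220 at rank 529 of the optimal set (X, 6679153 to 6679536, dm6). Its best region ranked 395, 819 and 581 in replicates 1, 2 and 3, inside the top regions of all of them. ND-MWFE, another small accessory subunit, had a peak of signal 216 at rank 542 (2R, 13158236 to 13158619), with ranks of 461, 492 and 942. ND-51, which carries the flavin that accepts electrons from NADH, had a peak of signal 188 at rank 705 (2L, 6062656 to 6063039), with ranks of 501, 753 and 1080. All 3 replicates placed these genes among their top regions, none of them beyond rank 1080. ND-24, the partner of ND-51 in the NADH-oxidising module, was weaker, at rank 1459 with a signal of 125 (X, 17631999 to 17632382). Its ranks were 2678, 1737 and 1293, so replicate 1 did not place it among the top regions. ND-75, the third subunit of that module, had no optimal peak, and its best region ranked 5852 in the pooled list. ND-42, an accessory subunit, had a peak of signal 105 at rank 1912 (3R, 22027263 to 22027646), with ranks of 1758, 2353 and 2566.

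In complex IV the 3 bound genes encode nuclear subunits that surround the catalytic core of cytochrome c oxidase. COX5A had a peak of signal 174 at rank 818 (3R, 11819353 to 11819736), and its ranks of 782, 700 and 1150 were top ranks in every replicate. COX6B, at rank 1952 with a signal of 103 (X, 19744189 to 19744572), ranked 1099 in replicate 1 but 3561 and 3046 in replicates 2 and 3. COX5B, at rank 2147 with a signal of 97.5 (2L, 6557326 to 6557709), ranked 1952, 2382 and 3113. The peaks of COX6B and COX5B thus lay near the lower end of the optimal set, whose lowest signal was 90.6, and replicate 3 did not place them among its top regions.

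In complex V, ATPsynC encodes the subunit that forms the rotating membrane ring, ATPsynCF6 a subunit of the peripheral stalk, and ATPsynE a small membrane subunit. ATPsynE was the only one of the 11 genes with 2 optimal peaks. The stronger, of signal 137 and rank 1271, lay at the promoter (3R, 14326824 to 14327207), and the other, of signal 117 and rank 1602, lay 801 bp downstream of the TSS. The summit of that downstream peak, at 14327869, lies past the annotated end of the gene at 14327735. The best region of ATPsynE ranked 688, 1841 and 934 in replicates 1, 2 and 3, and the rank in replicate 3 belongs to the downstream peak, since the promoter peak ranked 2975 there. ATPsynC had a peak of signal 111 at rank 1742 (3R, 31219484 to 31219867), with ranks of 1837, 1951 and 3217. ATPsynCF6 had the weakest peak of the 11 genes, with a signal of 91.5 and rank 2365 (3R, 23355915 to 23356298). Its best region ranked 2120, 2136 and 1777, but in replicate 2 the region that matches the optimal peak ranked 6538, and rank 2136 belongs to another region within 1 kb.

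The sequences under 8 of these summits are shown to let the bound promoters be compared with each other. Each is the stretch around the summit, up to 70 bp to either side, that lies in no annotated exon, read on the strand of the named gene from the RefSeq release 6 genome (dm6). At ATPsynE and ND-42 the strongest summit lies in an annotated exon, and none is shown. Capitals mark a match, on either strand, to one of the 10 motifs described further on.
ND-ASHI, chrX:6679275-6679415, minus strand: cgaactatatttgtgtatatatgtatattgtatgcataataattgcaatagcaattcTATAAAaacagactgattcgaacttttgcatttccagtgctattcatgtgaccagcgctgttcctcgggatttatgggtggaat
ND-51, chr2L:6062778-6062918, minus strand: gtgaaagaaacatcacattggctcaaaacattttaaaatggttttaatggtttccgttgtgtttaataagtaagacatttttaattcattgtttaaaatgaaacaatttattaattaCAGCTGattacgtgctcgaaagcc
COX5A, chr3R:11819475-11819547, plus strand: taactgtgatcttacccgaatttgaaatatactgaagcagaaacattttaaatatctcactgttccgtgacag
ATPsynC, chr3R:31219631-31219746, minus strand: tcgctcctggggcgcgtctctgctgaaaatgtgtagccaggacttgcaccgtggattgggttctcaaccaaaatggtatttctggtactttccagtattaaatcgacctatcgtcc
ATPsynCF6, chr3R:23356065-23356177, minus strand: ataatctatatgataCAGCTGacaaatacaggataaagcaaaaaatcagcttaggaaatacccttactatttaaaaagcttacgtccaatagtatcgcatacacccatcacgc
ND-24, chrX:17632180-17632253, plus strand: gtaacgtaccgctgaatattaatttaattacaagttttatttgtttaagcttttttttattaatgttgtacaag
COX5B, chr2L:6557503-6557588, plus strand: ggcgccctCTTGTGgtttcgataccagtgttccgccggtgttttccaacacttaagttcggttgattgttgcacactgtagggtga
COX6B, chrX:19744336-19744430, minus strand: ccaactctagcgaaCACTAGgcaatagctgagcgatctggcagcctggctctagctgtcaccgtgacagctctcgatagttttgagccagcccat
The stretches differ in base composition, from 23.0% G and C at ND-24 to 54.7% at COX6B. The E-box CAGCTG occurs at ND-51 and ATPsynCF6, the N-box at COX5B and COX6B and the TATA sequence at ND-ASHI, and the stretches of COX5A, ATPsynC and ND-24 hold none of the 10 motifs.

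**Figure D2:**
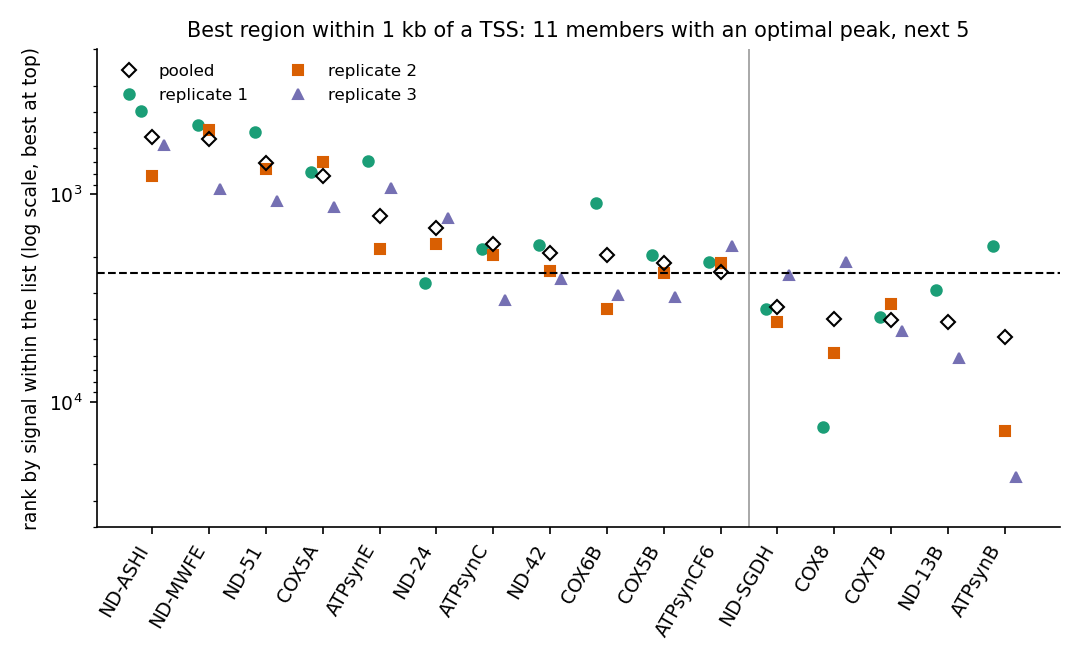
Rank by signal (y axis, log scale, best rank at the top) of the best region within 1 kb of a TSS, in the pooled list and in each replicate, for the 11 genes with an optimal peak (left of the vertical line) and the 5 next genes by pooled rank. The dashed line marks rank 2397, where the optimal set ends; a missing symbol means that the list holds no region there. From ND-ASHI to COX5A all 3 replicates lie above the line, whereas COX8 and ATPsynB were ranked high by a single replicate.

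Most of the bound oxidative phosphorylation genes, 7 of 11, had peaks beyond the middle rank of the optimal set. Their optimal ranks ran from 529 to 2365 with a median of 1459, against a median of 1111.5 over the 1728 bound genes, and 4 of 11 (36.4%) lay above the middle rank of the set, namely ND-ASHI, ND-MWFE, ND-51 and COX5A, against 53.2% of all bound genes. The highest signal among them was 220, while the optimal set reaches 1743. With 11 genes these are descriptions, and the difference was not tested. Of the 12 distinct peaks, 5 had a top region in all 3 replicates within 200 bp of the summit (41.7%, interval 19.3 to 68.0%), against 59.9% of all optimal peaks. Without replicate 3 the number was 9 of 12 (75.0%), against 69.5% of all peaks, and without replicate 1 or replicate 2 it was 6 of 12.

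Most of the bound genes had a close neighbour on the opposite strand. In 10 of 11 a TSS of a gene on the opposite strand lay within 1 kb of the summit (90.9%), against 55.8% of all bound genes. ATPsynC was the exception, with no other TSS nearby. Close neighbours were already frequent in the set these genes come from. Another gene's TSS, on either strand, lay within 1 kb of the gene's own in 58.0% of oxidative phosphorylation genes, against 42.9% of all genes. Among subunit genes that are not duplicates, the source of all 11 bound genes, the share was 69.8%. Whether the bound genes differ from their set in this was not tested. The partner of ND-ASHI was Fum1, which encodes fumarase of the citric acid cycle, so a single peak was assigned to both mitochondrial genes. The partner of ND-42 was Cchl, which encodes the enzyme that attaches heme to cytochrome c, and the summit lay 25 bp downstream of the TSS of Cchl but at -254 bp from that of ND-42. For ND-MWFE the nearest TSS was that of TppII, a peptidase gene, at 17 bp, and for COX5B it was that of IFT52, an intraflagellar transport gene, at -16 bp. In the other 8 genes the oxidative phosphorylation gene's own TSS was nearest, for COX6B jointly with CG18809, which shares its start. That is 72.7% of the bound genes, against 70.4% over all bound genes. The partners of ND-51, COX5A, ATPsynE, ND-24 and ATPsynCF6 were CG13994, glo, Afti, corolla and Sec13.

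Genes with a close neighbour are bound more often throughout the genome, and the oxidative phosphorylation genes followed the same division. Of all genes with another gene's TSS within 1 kb of their own, 19.0% were bound, against 7.39% of genes with none. Among the oxidative phosphorylation genes 10 of 51 with such a neighbour were bound (19.6%, interval 11 to 32.5%) and 1 of 37 without (2.70%, interval 0.479 to 13.8%). Each interval contains the share of all genes of the same kind. The mitochondrial ribosomal protein genes divided likewise, with 10 of 60 bound among those with a neighbour (16.7%) and 0 of 13 without. For the cytosolic ribosomal protein genes the shares were 58.6% and 47.1%. A peak between neighbouring starts is counted for each gene it lies close to.

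**Figure D3:**
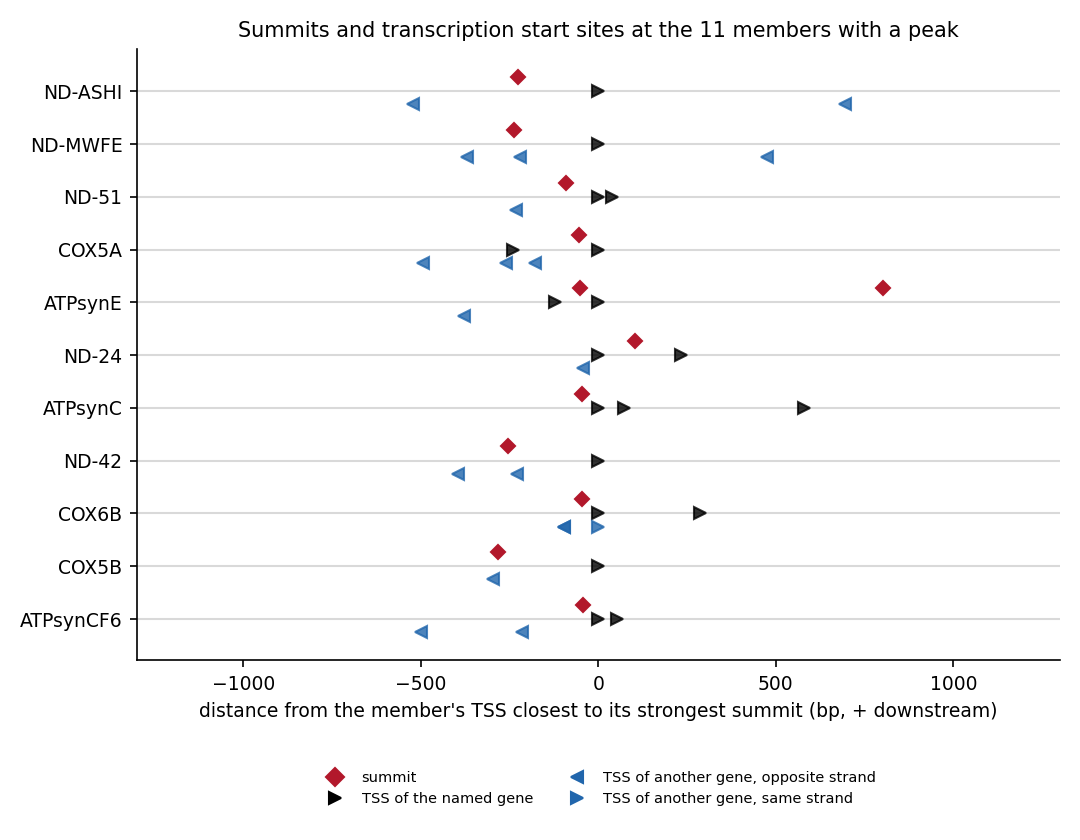
Position of peak summits (red diamonds) and of annotated starts around the 11 bound genes, as distance in bp from the start of the named gene that is closest to its strongest summit (x axis, positive values downstream). Black triangles are starts of the named gene and blue triangles starts of other genes, pointing in the direction of transcription relative to it. The strongest summit lies upstream of that closest start in 10 of 11 genes, at -282 to -43 bp. COX5A and ATPsynE have another start of their own further upstream than the summit. Opposite-strand starts are present everywhere except at ATPsynC.

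By the counting rule each summit lies within 1 kb of a TSS, so only its position inside that window is described. In 10 of 11 bound genes the strongest summit was upstream of the gene's closest TSS, between -282 bp (COX5B) and -43 bp (ATPsynCF6). In ND-24 it was at 102 bp downstream. Measured from the closest TSS, COX5A and ATPsynE have another annotated start at -240 bp and -121 bp. Their summits, at -54 bp and -52 bp, thus lie downstream of that other start. Summits upstream of the closest TSS made up 90.9% here and 82.6% over all bound genes. The median was -54 bp, against -139 bp over the 1728 bound genes. In 7 of the 11 genes (63.6%) the summit was within 200 bp, against 52.3%.

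The bound genes were all subunit genes that are not duplicates, called core subunits here whether the subunit is catalytic or accessory. None of the duplicate genes was bound. The 88 genes divide into 63 core subunits, 24 duplicates with an L symbol and Sdhaf3, an assembly factor for succinate dehydrogenase. Of the core subunits 11 were bound (17.5%, interval 10 to 28.6%), and of the duplicates 0 of 24 (interval 0 to 13.8%), which at this number cannot be told from the 12.4% of all genes. The duplicates differed from the core subunits in their neighbourhood too, since 7 of 24 had another TSS within 1 kb (29.2%), against 44 of 63 core subunits (69.8%). The part of this in the difference was not tested. The pooled list by its label holds background as well as peaks, so its shares are not shares of bound genes. In the pooled list of 30000 regions 47 of 63 core subunits had a region of any rank within 1 kb (74.6%), as had 10 of 24 duplicates (41.7%) and 59.7% of all genes. The best duplicate, COX7AL2, a copy of a cytochrome c oxidase subunit gene, stood at pooled rank 5499, with ranks of 12569 and 4908 in replicates 1 and 2 and no region in replicate 3. ATPsynepsilonL, with rank 5770 in the pooled list, had a region only in the list of replicate 1, at rank 6662. When the allowed distance was 2 kb, 16 of 88 genes were bound (18.2%, against 15.9% of all genes), and COX5BL and COX7AL2 were then among them.

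**Figure D4:**
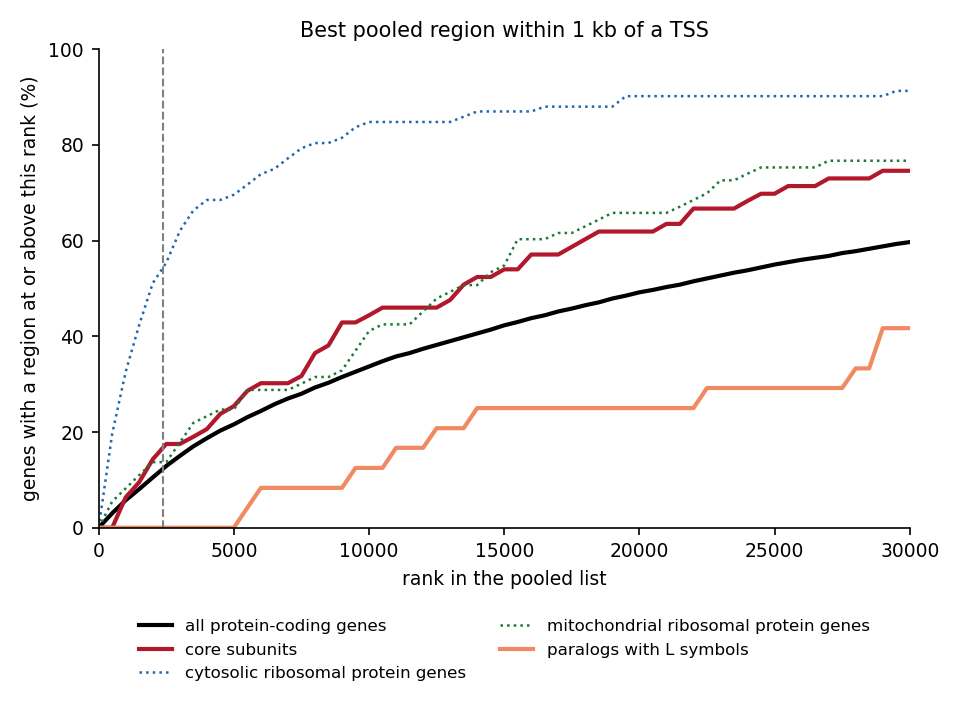
Share of genes (y axis, percent) whose best region within 1 kb of a TSS ranks at or above a given rank of the pooled list (x axis). The dashed line marks rank 2397, where the optimal set ends. Core subunits, here all subunit genes that are not duplicates, end at 74.6%. All protein-coding genes end at 59.7% and the duplicates with L symbols at 41.7%, with the ribosomal protein genes for comparison.

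Among the 52 core subunits without an optimal peak, the best placed in the pooled list were ND-SGDH (rank 3475), COX8 (3981), COX7B (4024), ND-13B (4108) and ATPsynB (4842). The best region of a gene need not be the same one in each replicate. COX7B, a cytochrome c oxidase subunit, ranked 3915, 3357 and 4529, with summits at -181, -849 and -884 bp, so replicate 1 ranked another region than replicates 2 and 3. ND-SGDH, a complex I accessory subunit, ranked 3570, 4106 and 2434, with summits at -712, -35 and -203 bp. ND-13B ranked 2882 and 6110 in replicates 1 and 3 and had no region in replicate 2. COX8 ranked 13180, 5838 and 2120, and ATPsynB, a stalk subunit of the ATP synthase, ranked 1775, 13861 and 23078. COX8 and ATPsynB were thus top regions in 1 replicate each. The same was true of ATPsynF, at rank 2222 in replicate 1 against 5716 and 17300 in the others, and of SdhA, the flavoprotein subunit of succinate dehydrogenase, at rank 1710 in replicate 3 against 11463 in replicate 2 and no region in replicate 1. These 4 genes had no optimal peak. SdhC, a membrane anchor of succinate dehydrogenase, ranked 3503, 3961 and 4018, but with summits at 333, 627 and -63 bp, which are different regions, and its rank in the pooled list was 13691.

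No region of the pooled list lay within 1 kb of 30 of the 88 genes (34.1%), against 40.3% of all genes. The core subunits among them were ND-13A, ND-18, ND-19, ND-20, ND-49, ND-ACP, ND-AGGG, ND-B15, ND-B16.6, ND-MLRQ and ND-PDSW of complex I, SdhB of complex II, UQCR-11 and UQCR-6.4 of complex III, and ATPsynG and ATPsynbeta of complex V. The duplicates were ND-20L, ND-49L, ND-51L1, ND-B14.5AL, SdhBL, SdhCL, UQCR-14L, COX4L, COX5BL, COX6AL2, COX6CL, COX7AL, COX7CL and ATPsynCF6L. For 12 of the 88 genes (13.6%) the replicate lists held no region either, against 18.7% of all genes. ATPsynbeta, which encodes the catalytic subunit of the ATP synthase, lies on chromosome 4 with ND-49, an arm on which 1 of 80 genes was bound. Its best region was at rank 5742 in replicate 3. By arm, 5 of 20 genes on 3R were bound (13.2% of all genes there), 3 of 13 on X (12.0%), 2 of 16 on 2L (12.5%), 1 of 17 on 2R (11.2%) and 0 of 20 on 3L. The Wilson intervals of the shares on 3R, X, 2L and 2R contain those of all genes on the arm. The count of 0 on 3L has an upper limit of 16.1%, above the 13.1% of all genes on that arm.

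Other genes of mitochondrial energy metabolism were counted by the same rule. Of 11 respiratory genes whose symbols do not carry the prefixes, 4 were bound (36.4%, against 12.4% of all genes). These were blw, which encodes the alpha subunit of the ATP synthase (signal 180, rank 772), the cytochrome c genes Cyt-c-d (200, rank 625) and Cyt-c-p (174, rank 820), and Cyt-c1L, a duplicate of the cytochrome c1 gene (137, rank 1279). The summit at blw was at -83 bp from the TSS and its ranks were 947, 415 and 1462, so a gene of the catalytic head of complex V had a top region in every replicate. The summit counted for Cyt-c-p lay 977 bp downstream of its TSS. That for Cyt-c-d lay 421 bp downstream of its TSS and was nearest to CG31808, and that for Cyt-c1L lay at -676 bp. Of 9 assembly factor genes with other symbols 3 were bound (33.3%, interval 12.1 to 64.6%), with CIA30, a complex I assembly factor gene, first (807, rank 27). The ranks at CIA30 were 36, 33 and 22, the highest of any gene in these lists, and the nearest TSS was that of CG7601. Ttc19 (166, rank 894), a gene of complex III assembly, had its summit nearest to Acn, and Coa8 (96.6, rank 2177) had its summit nearest to CG14818.

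Of 18 genes of the citric acid cycle and pyruvate dehydrogenase 5 were bound (27.8%, against 12.4% of all genes). Fum1, through the peak it shares with ND-ASHI, and mAcon1, the aconitase gene (183, rank 746), had top regions in every replicate. Idh3g (110, rank 1758), Idh3b (98.7, rank 2099) and Ogdh (108, rank 1815) did not, with at least 1 replicate in which their best region ranked beyond 2397. The summit at mAcon1 was nearest to CG43345 and CG43346. Of 12 carrier, porin and import genes 1 was bound (8.33%), the pyruvate carrier gene Mpc1 (182, rank 755), whose summit was nearest to CG42613. Of 10 genes that act in mitochondrial gene expression and DNA maintenance 1 was bound (10%), mtSSB, which encodes the mitochondrial single-stranded DNA-binding protein (257, rank 383), with ranks of 489, 333 and 463. These lists hold from 9 to 18 genes, and the Wilson intervals of their shares, such as 15.2 to 64.6% for the 11 respiratory genes and 12.5 to 50.9% for the citric acid cycle genes, are wide. The lists were not tested.

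The genes of mitochondrial ribosomal proteins, another nuclear set for the same organelle, were bound at 13.7% (10 of 73, interval 7.61 to 23.4%). The genes of cytosolic ribosomal proteins, the other large housekeeping set, were bound at 54.3% (50 of 92, interval 44.2 to 64.1%). The interval of the oxidative phosphorylation genes, 7.13 to 21.0%, overlaps the first and not the second. The median pooled rank of the best region was 9079 for the 58 oxidative phosphorylation genes with one, 9699 for mitochondrial and 1573 for cytosolic ribosomal protein genes, and 8314.5 over all genes with a region.

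Promoter sequence was described with 10 motifs, counted on both strands in the 300 bases from 250 bp upstream to 50 bp downstream of the outermost TSS. The letters searched were TATCGATA for the DRE, GGTCACAC for the core of Motif 1, CAGCTG and CACGTG for E-boxes, CACGCG for the class C site, CACNAG for the N-box, TATAAA for the TATA sequence, CAGGTAG for the Zelda site and GAGAGAG for the GAGA repeat. The nuclear respiratory gene element was searched as TTACGTAA or TTATATAA or TTACATAA or TTATGTAA. The DRE and Motif 1 are elements of housekeeping promoters in Drosophila, and the E-box CACGTG, the class C site and the N-box are sites known for Enhancer of split and related repressors. The searches for different motifs may overlap, such as the TATA sequence with the respiratory element.

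Motif 1 was found in 16 of the 88 promoters (18.2%) and in 7.70% of all promoters, and among core subunits in 15 of 63 (23.8%). CAGCTG was found in 21 of 88 (23.9%, against 17.7%), the DRE in 9 (10.2%, against 9.36%), and the respiratory element in 6 (6.82%, against 5.18%). Among core subunits CAGCTG was found in 30.2% of promoters, and among mitochondrial ribosomal protein genes in 54.8%. The repressor sites were near the level of all promoters: CACGTG in 4 of 88 (4.55%, against 4.20%), CACGCG in 4 (4.55%, against 6.12%) and CACNAG in 30 (34.1%, against 29.7%). In the promoters of the 11 bound genes CACGCG occurred in 3 (COX5A, ATPsynCF6 and COX6B), or 27.3%, against 7.47% of the promoters of all bound genes, and Motif 1 in 4 (36.4%, against 10.1%). Of those 3 CACGCG matches, only the match at ATPsynCF6 lay within 100 bp of the summit. CAGCTG occurred in 3 (27.3%, against 24.1%), the N-box in 4 (36.4%, against 31.5%), the TATA sequence in 7 (63.6%, against 41.6%), and the respiratory element and the Zelda site in 1 each (9.09%, against 5.15% and 1.16%). CACGTG, the DRE and the GAGA repeat occurred in 0 of 11, against 5.15%, 12.8% and 8.33% of all bound genes. With 11 promoters these shares rest on few genes. The median G and C content was 34.2% in the 88 promoters and 38.0% in all promoters.

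At the summits themselves, in windows of 201 bp, CAGCTG occurred in 5 of the 12 peaks, against 13.1% of the 1313 optimal peaks within 1 kb of a TSS. These were the peaks at ND-MWFE, ND-51, ATPsynE, ND-42 and ATPsynCF6. The DRE occurred at 1 peak, assigned to ATPsynE, and CACGCG at 1, that of ATPsynCF6. These are 8.33% each, against 6.17% and 4.57% of the promoter peaks. The N-box occurred at 3 (25%, against 22.4%) and the TATA sequence at 5 (41.7%, against 28.9%). CACGTG, Motif 1, the respiratory element, the Zelda site and the GAGA repeat occurred at 0 of 12, against 3.43%, 3.05%, 3.05%, 0.381% and 4.95% of the promoter peaks. A match is a description of these letters and does not identify a binding site.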

How the data were processed

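Input was the dm6 region lists of 3 ChIP-seq libraries, biological replicates of 1 group, together with a list from their pooled alignments and the optimal set. Per the deposited descriptions, the authors made the replicate and pooled lists with a control alignment, and passed them to IDR, a test of reproducibility, which gave the optimal set. No source used here names the aligner, the caller or the threshold, and the control was not analysed here. By their labels, the replicate and pooled lists hold peaks and background together. Lists on dm3 were not used. The deposited signal has no stated scale, so only ranks within a list were used. The deposited −log10 q-value ran from 1.83 to 3.32 in the optimal set and served no test. The deposited summit offset gave each summit. By a check of positions and signals, the optimal set equals the top 2397 of 30000 pooled regions. No read numbers are given, so depth is unknown.

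Summits were placed on Ensembl release 115 gene models (dm6), for 6 arms. All lists ended within the arms of the RefSeq genome, and the start codons of 87 members read ATG there. Of 70 other pathway symbols, 60 matched. Duplicates were recognised by a final L, except ND-MNLL. Genes named are all members with an optimal peak, the 5 next by pooled rank, members without a pooled region, up to 4 bound genes of each other list (all 5 of the citric acid cycle list), and genes chosen after their values were seen (ND-75, COX7AL2, ATPsynepsilonL, ATPsynF, SdhA, SdhC). Members and lists were chosen with earlier results of these data known. With 1 group no test was made. Functions for assignment were tested on planted summits. Alternatives changed the distance, the assignment, the peak set, the list length and the replicates. Scripts ran under Python 3.11.15, with pandas 2.3.3, Matplotlib 3.10.9, NumPy 2.4.6 and, for Wilson intervals, SciPy 1.17.1.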

Additional observations from a re-analysis of the deposited data

How the results depend on the processing

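The number of bound oxidative phosphorylation genes changed with the settings, and their share lay above that of all genes under some and below it under others. The number was 7 when the peak itself had to cover a TSS (7.95%, against 6.15% of all genes, 858). It was 4 with the optimal peaks above the middle rank (4.55%, against 6.59%, 919). It was 5 with peaks found among the top regions of all replicates (5.68%, against 7.67%, 1070). Within 500 bp it stayed at 11 (12.5%), against 10.3% of all genes. Leaving out a replicate gave 6 to 8 genes (6.82 to 9.09%), and 1191 to 1233 of all genes (8.54 to 8.84%). With the top 1000 regions replicates 1, 2 and 3 had 5, 4 and 3 of the 88 genes. These are 5.68%, 4.55% and 3.41%, against 5.82%, 5.59% and 5.77% of all genes. With the top 5000 regions they had 21, 18 and 18. These are 23.9%, 20.5% and 20.5%, against 21.0%, 21.1% and 21.3% of all genes. The share of their peaks found in every replicate was 16.7% when summits had to lie within 50 bp (41.5% of all peaks), and 50 to 75.0% with a replicate left out. The median rank was 9079 in the pooled list and 7137 in that of replicate 3. Why these values moved was not tested, except that smaller peak sets hold fewer genes by construction. Distances of 500 bp or 2 kb, the nearest TSS, the outermost TSS, the gene span and core subunits alone kept the count within 1.5 times, from 8 to 16. No paired analysis was possible because all libraries belong to 1 group. The replicate and pooled lists hold background as well as peaks and depth is unknown, so weak regions cannot be told from background.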
